A study of Sus scrofa with 5 samples.

Results

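Dividing blood endothelial cells were taken as barcodes with at least 200 detected genes, at least 3 UMIs (unique molecular identifiers, each marking 1 captured RNA molecule) over PECAM1, PLVAP, VWF and CDH5 with at least 2 of these genes detected, at least 2 UMIs over MKI67 and TOP2A, and none of PROX1 or PTPRC. Of 72701 barcodes of the piglet cecum, 140 met this rule. The barcodes come from 5 libraries of cecal cells, 1 each at birth (d0) and 1 (d1), 7 (d7), 14 (d14) and 21 days (d21), from large white piglets that were born at term and given no feed but the milk of their sows, and which the labels give as male. The cells of 5 piglets were mixed in each library after the tissue had been dissociated with EDTA and trypsin, so there was 1 sample per age, no test between ages was possible, and age and library cannot be told apart. The dividing barcodes were nearly all from d1, which gave 137 of the 140 (97.9%), while d0 gave 1, d14 gave 2, and d7 and d21 gave 0.

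Blood endothelial cells line the vessels and pass nutrients, hormones and immune cells between blood and tissue. In a growing organ new vessels arise largely by sprouting, in which a leading tip cell follows VEGF and the cells behind it divide, and resting vessels settle into arteries, capillaries and veins with their own gene programs. A dividing cell copies its DNA in S phase, with licensing factors, polymerase partners and a supply of nucleotides and histones, and separates the copies in G2 and M phase with the spindle, the kinetochores and the condensed chromosomes.

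The dividing barcodes were chosen by the UMIs of MKI67, TOP2A and the 4 endothelial genes, whose values are given as a description. PECAM1 (chromosome 12, 14667643 to 14723296 in Sscrofa11.1) is an adhesion protein of endothelial junctions, PLVAP (chromosome 2, 60324565 to 60344450) builds the diaphragms of fenestrated vessels, VWF is the clotting factor stored by endothelium and CDH5 is the cadherin of endothelial junctions. TOP2A (chromosome 12, 22001300 to 22028452) untangles replicated DNA, and MKI67 (chromosome 14, 137266622 to 137296312) coats mitotic chromosomes. Among the 137 dividing barcodes of d1, the summed UMIs of MKI67 and TOP2A had a median of 7 and a highest value of 43. TOP2A without MKI67 was seen in 41 of them, MKI67 without TOP2A in 2, and both in 94. TOP2A therefore carried most of the choice. Just inside the limit lay 22 barcodes with exactly 2 UMIs, and just outside it 74 blood endothelial barcodes of d1 with exactly 1. The 4 endothelial genes together gave a median of 40 UMIs, and 1 dividing barcode had exactly 3, while 21 other barcodes of d1 with at least 2 division UMIs had exactly 2 and were left out. A further 16 had at least 3 endothelial UMIs of 1 gene alone and were left out too.

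The libraries held very different numbers of blood endothelial barcodes. The gate without MKI67 and TOP2A took 33 barcodes at d0, 1857 at d1, 7 at d7, 68 at d14 and 39 at d21, which was 0.217%, 13.1%, 0.0681%, 0.420% and 0.231% of the kept barcodes. The d1 library thus held 92.7% of all blood endothelial barcodes but 19.5% of all kept barcodes. Total counts were close to each other by comparison, at 83394038, 80196009, 47921183, 91863866 and 69522315 from d0 to d21.

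The dividing share of blood endothelial barcodes was 7.38% at d1 (137 of 1857, exact Clopper-Pearson 95% interval 6.23 to 8.66, which covers counting error only, as do all intervals here). It was 3.03% at d0 (1 of 33, 0.0767 to 15.8) and 2.94% at d14 (2 of 68, 0.358 to 10.2). At d7 it was 0 of 7 and at d21 0 of 39, for which the exact intervals reach up to 41.0% and 9.03%, and the rule of 3 counts gives limits of 42.9% and 7.69%. The intervals of d0, d7, d14 and d21 all overlapped that of d1, but they rest on 33, 7, 68 and 39 barcodes. With so few barcodes and 1 library per age, this overlap decides nothing about the shares. Over the other 4 libraries together 3 of 147 barcodes (2.04%, 0.423 to 5.85) were dividing, below the interval of d1, but 2 of these 3 went against their label. The gated barcodes of d7 and d14 also held less endothelial RNA. PLVAP was at 27.5 and 30.9 UMIs per 10000 counts of the gated barcodes at d0 and d1, but at 4.04, 9.77 and 13.1 at d7, d14 and d21, and KDR was at 2.76 and 2.06, then 0, 0.721 and 1.60. COL3A1, a collagen of fibroblasts, was at 0 and 3.42, then 22.8, 39.5 and 4.04, and RGS5, a gene of pericytes, at 0.753 and 0.352, then 0.851, 5.64 and 7.33 (5.79 to 9.15 at d21). At d21 PLVAP was lower than at d1, but CDH5 (3.57 and 3.03), VWF (5.07 and 4.71), FLT1 (2.35 and 1.98), EGFL7 (5.36 and 5.25) and ESAM (3.66 and 2.01) were at or above the d1 level, and apart from ESAM their intervals overlapped.

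The label was checked against genes that the rule did not use. The d0 barcode had 5975 UMIs, 58 of them of the 4 endothelial genes, 2 UMIs of the VEGF receptor KDR, 2 of the junction gene ESAM, 1 of FLT1 and 1 of EGFL7, and 2 UMIs over 15 markers of epithelium, fibroblasts, mural cells and leukocytes. Both d14 barcodes went the other way. They had 4 endothelial UMIs each (1 of PECAM1 and 3 of PLVAP), no UMI of KDR, FLT1, EGFL7 or ESAM, and 647 and 153 UMIs of the other markers, led by the fibrillar collagen COL3A1 with 193 and 74. Their values go against an endothelial label, and they enter no gene comparison here.

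At d1 the label held for most barcodes. A UMI of EGFL7, a protein secreted by endothelium, was seen in 96.4% of the 137 dividing barcodes, of KDR in 72.3%, of ESAM in 68.6%, of the angiopoietin receptor TEK in 67.9%, of FLT1 in 67.2%, of the transcription factor ERG in 64.2%, of TIE1 in 46.7% and of CLDN5 in 17.5%. For comparison, 932 barcodes of d1 had a UMI of the leukocyte gene PTPRC and none of the epithelial gene EPCAM. Their shares were 17.9% for EGFL7, 4.29% for KDR, 6.44% for TEK and 3.43% for ERG. In the 7157 with EPCAM and without PTPRC the shares were 14.5%, 7.34%, 7.34% and 6.05%. The 7157 include 67 dividing and 659 non-dividing blood endothelial barcodes with EPCAM, so their shares are not those of epithelium alone. Median depths were 7477 UMIs in the dividing barcodes, 3343.5 in the PTPRC ones and 4127 in the EPCAM ones. PLVAP was seen in 35.6% of PTPRC barcodes and 27.1% of EPCAM barcodes, so 1 or a few UMIs of PLVAP in this library may be background. The part of free RNA and of endothelial cells in these shares was not tested.

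Markers of other cell types were present as well. A UMI of EPCAM was seen in 48.9% of the dividing barcodes, with 3.57 UMIs per 10000 counts over all of them against 16.0 in the EPCAM barcodes. By a rule of at least 3 UMIs over the 15 other markers, 78 of 137 dividing barcodes (56.9%) were mixed, against 726 of 1646 non-dividing ones (44.1%). This rule is a fixed number of UMIs, and the dividing barcodes were deeper, with medians of 7477 against 3660.5 UMIs. The 6 epithelial markers summed to 17.0 per 10000 counts in the dividing and 19.7 in the non-dividing barcodes, led in the dividing ones by KRT19 at 5.42. The 6 fibroblast markers summed to 4.66 and 7.64, led by COL3A1 at 1.98, and the 6 of pericytes and smooth muscle to 1.50 and 1.59, led by ACTA2 at 0.582. The 6 lymphocyte markers summed to 0.0442, with CD3D, CD79A, MS4A1 and JCHAIN at 0, the 6 myeloid ones to 0.265, led by C1QB at 0.111, the 3 glial ones to 0.133 and the 3 erythroid ones to 0.0221. The part of free RNA or of doublets in the results was not tested, and values for the 59 unmixed dividing barcodes are given beside several results.

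**Figure D1:**
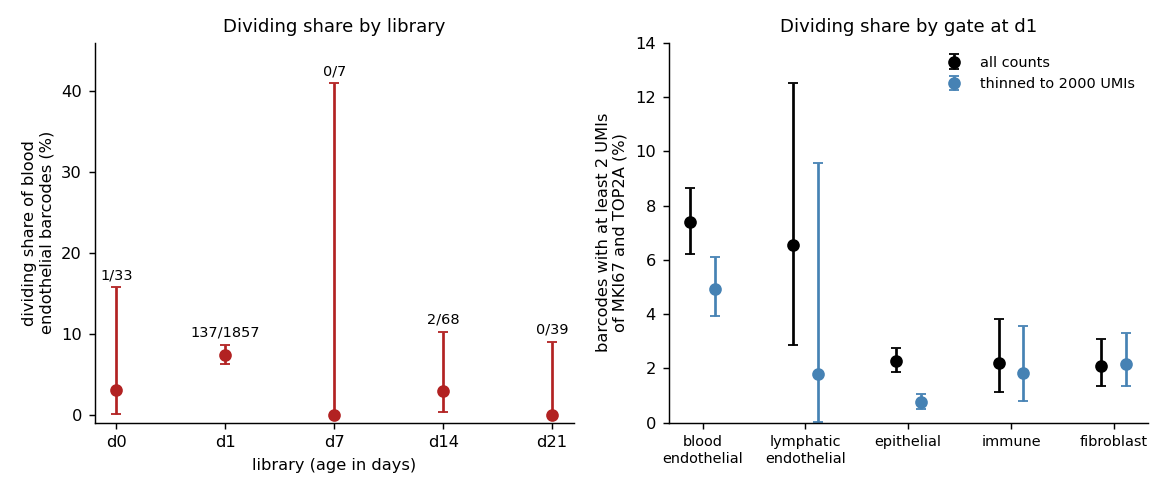
Left, share of blood endothelial barcodes with at least 2 UMIs of MKI67 and TOP2A (y axis, %) in each library (x axis), with members over gated barcodes written above. Right, the same share at d1 for 5 gates (x axis), with all counts (black) and after thinning to 2000 UMIs (blue). Bars are exact 95% intervals for counting error. The 137 dividing barcodes of d1 stand against 3 in the other 4 libraries, and the thinned blood endothelial share (4.94%) lies above the thinned epithelial, immune and fibroblast ones. The epithelial, immune and fibroblast gates took no barcode with an endothelial UMI.

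Within the d1 library the dividing share was set beside that of other gates, each with at least 2 UMIs of MKI67 and TOP2A. The epithelial, immune and fibroblast gates took barcodes with no UMI of the 4 endothelial genes, with EPCAM but not PTPRC, PTPRC but not EPCAM, or neither and at least 3 UMIs of fibroblast genes. The share was 2.27% of epithelial barcodes (104 of 4583, 1.86 to 2.74), 2.21% of immune barcodes (12 of 542, 1.15 to 3.84), 2.08% of fibroblast barcodes (24 of 1152, 1.34 to 3.08) and 6.56% of lymphatic endothelial ones with PROX1 (8 of 122, 2.87 to 12.5). Deeper barcodes reach 2 UMIs more easily, so all barcodes were also thinned to 2000 UMIs and gated anew. The shares were then 4.94% in blood endothelium (78 of 1580, 3.92 to 6.12), 0.757% in epithelium (30 of 3964, 0.511 to 1.08), 1.83% in immune barcodes (8 of 438, 0.792 to 3.57), 2.18% in fibroblasts (21 of 962, 1.36 to 3.32) and 1.79% in lymphatic endothelium (1 of 56, 0.0452 to 9.55). The blood endothelial interval lay above those of epithelium, immune cells and fibroblasts with and without thinning, and overlapped that of lymphatic endothelium in both. These gates were not alike, however. Blood endothelial barcodes could hold EPCAM, as 67 of the 137 dividing ones did, but the epithelial, immune and fibroblast gates allowed no endothelial UMI. The epithelial gate thus kept 4583 of the 7157 barcodes with EPCAM and without PTPRC. The part of this unlike gating in the shares was not tested. Without the mixed barcodes the blood endothelial share of d1 was 5.78% (59 of 1020, 4.43 to 7.40).

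In the following, the 137 dividing barcodes of d1 are compared with the 1646 blood endothelial barcodes of the same library with 0 UMIs of MKI67 and TOP2A. Levels are UMIs of a gene per 10000 UMIs of all genes, after adding up the barcodes of a class, and a log2 ratio is that of 2 levels with 0.1 added to each, which understates the change of low genes. The 2 classes held 1356548 and 7788092 counts. The classes were cut from the same library by a division gene, so every value below belongs to the contrast that chose the barcodes and is a description with no test. Of 11721 genes with at least 20 counts in both classes together, 372 (3.17%) were at least 2-fold higher in the dividing barcodes and 28 (0.239%) at least 2-fold lower. The median log2 ratio over all 11721 was 0.01. The dividing barcodes were deeper, with a median of 7477 UMIs and 2663 genes against 3660.5 and 1554, and had a like share of mitochondrial counts (5.27% and 5.70%). Set against the 568 non-dividing barcodes with 4199 to 16896 UMIs, where most dividing ones lay, 352 genes were higher and 40 lower. All 137 dividing barcodes were kept in that comparison, and the 568 had a median of 5620.5 UMIs, still below 7477. Depth was thus matched in part only, and this is what matched depth means below. Without the mixed barcodes 407 were higher and 169 lower, of which 306 and 19 were among the 372 and the 28, and with 0.01 added in place of 0.1 the numbers were 653 and 422, so the number of lower genes in particular depends on these choices.

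Genes of the spindle and kinetochore stood furthest apart. All 20 of the list were at least 2-fold higher, with a median log2 ratio of 3.59, where 3.17% of all genes were. UBE2C (chromosome 17, 48018403 to 48021542), the ubiquitin-conjugating enzyme that works with the anaphase-promoting complex, had a level of 4.86 (exact Poisson 95% interval 4.49 to 5.24) in dividing barcodes and 0.0360 (0.0239 to 0.0520) in non-dividing ones. It was seen in 78.8% and 1.58% of them. CENPF (chromosome 9, 128948386 to 129012241), a kinetochore protein, had 6.18 (5.77 to 6.62) against 0.105 (0.0837 to 0.131), and the spindle assembly factor TPX2 had 3.83 (3.51 to 4.18) against 0.0693 (0.0521 to 0.0905). The intervals of the classes were far apart for each. The mitotic kinase genes AURKA, AURKB and PLK1 had log2 ratios of 2.78, 3.29 and 3.00, the motors KIF11 and KIF23 4.04 and 4.05, and the checkpoint genes BUB1, BUB1B and MAD2L1 2.66, 3.28 and 2.69. INCENP, a partner of AURKB, had the smallest ratio of the list, 2.40.

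Chromatin genes of dividing cells were high in absolute level. All 15 measured genes of the list were at least 2-fold higher, against 3.17% of all genes, with a median log2 ratio of 2.32. HMGB2, a DNA-bending protein, had a level of 16.7 (16.0 to 17.4) in dividing and 1.25 (1.17 to 1.33) in non-dividing barcodes. The tubulin regulator STMN1 had 14.8 (14.1 to 15.4) against 2.88 (2.76 to 3.00). The condensin genes SMC2 and NCAPG had log2 ratios of 2.79 and 2.94, and the DNA methylation genes UHRF1 and DNMT1 2.36 and 1.57. HMGB1 and the histone variant gene H2AFZ were already at 9.77 and 7.51 in the non-dividing barcodes and reached 27.9 and 24.3, so their ratios were among the smaller ones of the list (1.50 and 1.68).

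Genes of DNA copying were higher by a smaller step. Of 22 genes for replication licensing and the fork, 15 were at least 2-fold higher and 0 lower, where 3.17% and 0.239% of all genes were, with a median log2 ratio of 1.36. The sliding clamp PCNA (chromosome 17, 14137746 to 14142584) had 2.03 (1.79 to 2.28) against 0.546 (0.495 to 0.600). The helicase subunits MCM2, MCM3, MCM4, MCM6 and MCM7 had log2 ratios between 1.36 and 1.52, and MCM5 had 0.97. FEN1, which trims Okazaki fragments, had 1.73, the largest of the list, and 7 genes, among them CDC6, CDC45, GINS3 and GINS4, stayed between 0.63 and 0.97.

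For nucleotide synthesis, genes of the deoxynucleotide branch were past the limit. TK1 (chromosome 12, 3785997 to 3794824), the thymidine kinase, had 3.13 (2.84 to 3.44) against 0.0796 (0.0610 to 0.102), a log2 ratio of 4.17. The ribonucleotide reductase subunits RRM2 and RRM1 had log2 ratios of 2.96 and 1.71 and thymidylate synthase (TYMS) 2.00. Of the 18 genes of the list, 13 were within 2-fold, and over all genes 3.17% were higher. They include the purine genes PAICS (0.13), GART (0.18), ATIC (0.48) and PPAT (-0.04) and the pyrimidine genes CAD (0.28) and UMPS (0.18). Of the folate genes, MTHFD1 had 0.99 and MTHFD2 0.91, and SHMT2 had -0.67.

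Of 24 measured genes of cyclins and their partners, 13 were at least 2-fold higher and 0 lower, where 3.17% and 0.239% of all genes were, with a median log2 ratio of 1.05. The mitotic cyclins CCNA2, CCNB1 and CCNB2 had 2.98, 3.31 and 3.40 and their kinase CDK1 3.55. The D cyclins of G1 were not among the higher genes. CCND1 had 0.413 (0.312 to 0.536) against 0.637 (0.582 to 0.695), CCND2 0.147 (0.0901 to 0.228) against 0.392 (0.349 to 0.438) and CCND3 0.671 (0.540 to 0.824) against 0.886 (0.821 to 0.955), which are log2 ratios of -0.52, -0.99 and -0.36, and the intervals of CCND3 overlapped. Of the E cyclins, which act at the start of S phase, CCNE2 was at 0.310 (0.223 to 0.419) against 0.109 (0.0872 to 0.135) and CCNE1 at 0.0663 (0.0303 to 0.126) against 0.0231 (0.0137 to 0.0365), log2 ratios of 0.97 and 0.43. Among unmixed barcodes CCND2 (-1.71) and CCNE2 (1.31) were past the limit. Inhibitors of cyclin-dependent kinases differed in direction. CDKN2C, an inhibitor of CDK4 and its partner kinase, was higher, with 1.01 (0.848 to 1.19) against 0.0282 (0.0177 to 0.0428), CDKN1C was at 0.568 (0.448 to 0.709) against 1.10 (1.03 to 1.18), and CDKN1A and CDKN1B had log2 ratios of -0.25 and 0.46. Among the transcription factors of the cycle, FOXM1 had 2.30, MYBL2 2.33, E2F8 2.91 and E2F1 1.40.

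Outside these lists and those of Seurat for S and G2/M phase, 261 of the 372 higher genes remained. By size the first with a gene name were PRC1 (log2 ratio 4.11), which bundles the central spindle, ASPM (4.08) of the spindle poles, the mitotic kinase PBK (4.03), PYY (3.92), the PCNA partner PCLAF (3.76), the transcriptional repressor MXD3 (3.70), the kinetochore gene SPC24 (3.59), SHCBP1 (3.46), the formin DIAPH3 (3.22) and the motor KIF22 (3.20). PYY is a gut hormone, and 97.6% of its UMIs in the dividing barcodes were in 1 barcode. In all, 12 of the 372 genes (3.23%) had more than 50% of their UMIs in 1 barcode.

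**Figure D2:**
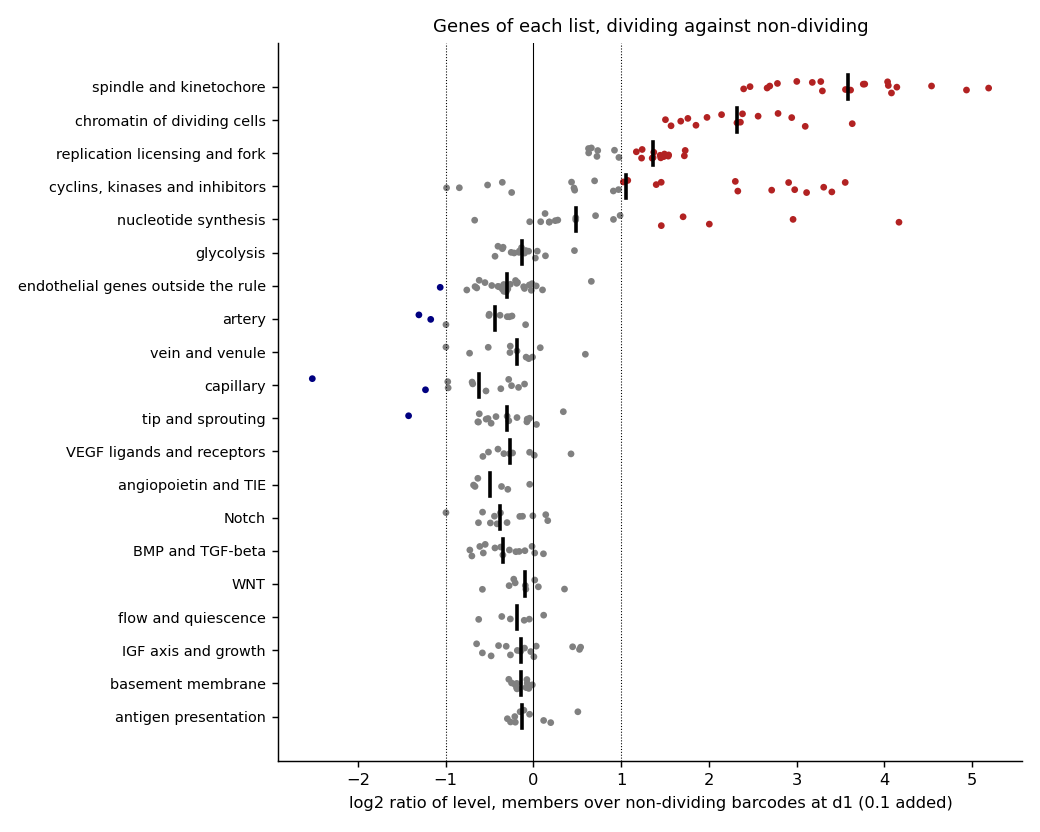
Log2 ratio of the level in 137 dividing over 1646 non-dividing blood endothelial barcodes of d1 (x axis, 0.1 added to both levels) for each gene with at least 20 counts (points), by list (y axis). Black bars are list medians and dotted lines mark 2-fold. All spindle and chromatin genes lie past the right line, 15 of 22 replication genes do, and the endothelial, vessel and signalling lists have medians between -0.62 and -0.09.

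The 1-UMI barcodes lay between the classes. The 74 blood endothelial barcodes of d1 with exactly 1 UMI of MKI67 and TOP2A had a level of UBE2C of 0.589, of CENPF of 1.00, of TK1 of 0.851 and of HMGB2 of 5.76, each above the non-dividing and below the dividing barcodes. The median log2 ratio of the spindle list was 1.69 for these barcodes over the non-dividing ones. Over each barcode's S and G2/M list levels together, 23 of the 74 (31.1%) and 37 of the 1646 non-dividing barcodes (2.25%) reached the 10th percentile of the dividing ones (61.3 UMIs per 10000), so some barcodes outside the gate carried as much cell cycle RNA as some within it.

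**Figure D3:**
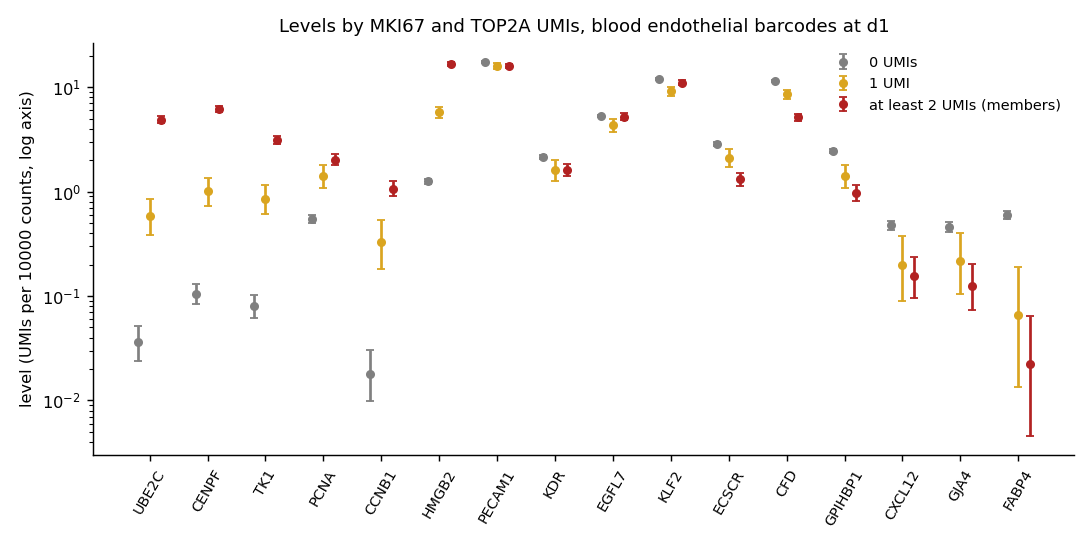
Levels of 16 genes (y axis, UMIs per 10000 counts, log axis) in blood endothelial barcodes of d1 with 0 (grey), 1 (yellow) and at least 2 UMIs (red) of MKI67 and TOP2A. Bars are exact Poisson 95% intervals. The cell cycle genes on the left climb from grey to red, with HMGB2 at 1.25, 5.76 and 16.7, while PECAM1, KDR, EGFL7 and KLF2 stay close together and ECSCR, CFD and GPIHBP1 descend.

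Cell cycle phase varied among the dividing barcodes. The 43 S genes and the 52 G2/M genes of the Seurat lists other than MKI67 and TOP2A had median levels per barcode of 28.8 and 123 in the dividing barcodes, 9.32 and 19.2 with 1 UMI, and 6.27 and 14.1 in the non-dividing ones. More G2/M than S UMIs were found in 129 of the 137 barcodes, more S UMIs in 5 and equal numbers in 3, though the G2/M list is longer and 1249 of the 1646 non-dividing barcodes showed the same order. The G2/M share of these UMIs had quartiles of 60.9%, 81.5% and 90.9%, and ran from 36.5% to 100%. Barcodes with more division UMIs were richer in G2/M genes, with a median level of 73.3 in the 35 with 2 to 3 UMIs, 91.0 in the 54 with 4 to 9 and 207 in the 48 with at least 10, while the S median was 22.2, 32.7 and 24.8. TOP2A and MKI67 themselves are genes of the G2/M list.

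**Figure D4:**
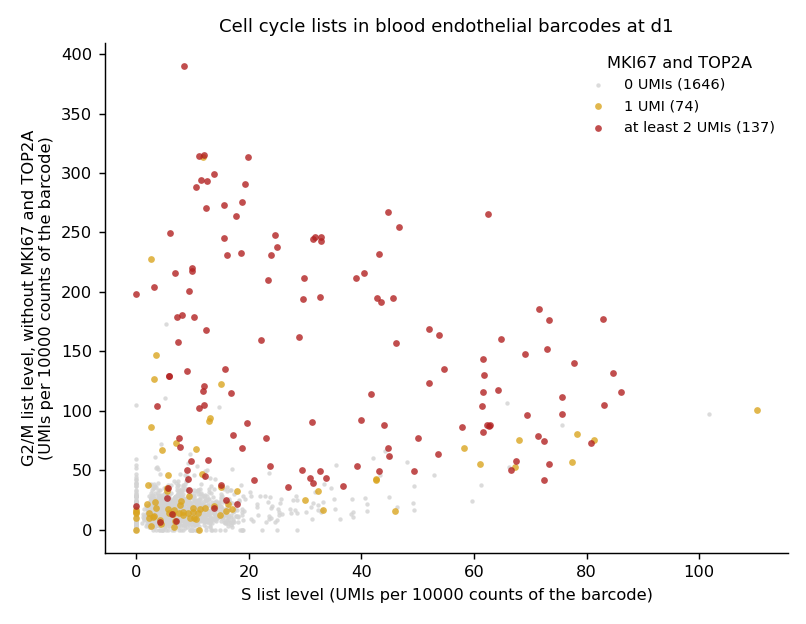
Level of the S list (x axis) against the G2/M list without MKI67 and TOP2A (y axis), both in UMIs per 10000 counts of the barcode, for each blood endothelial barcode of d1 by its UMIs of MKI67 and TOP2A. The dividing barcodes (red) spread from high S with moderate G2/M to low S with high G2/M, up to 390, and the grey ones crowd near 6.27 and 14.1.

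To follow genes along this spread, the dividing barcodes were ordered by their G2/M share and split into 4 bins of 34, 34, 34 and 35. PCNA, itself of the S list, had levels of 3.57, 2.99, 0.835 and 0.405 from the first to the last bin, and UBE2C, of the G2/M list, 1.11, 2.11, 5.16 and 13.6. Genes that were in neither list were ordered too. CCNB1 had 0.253 (0.109 to 0.498), 0.402 (0.230 to 0.653), 1.24 (0.917 to 1.64) and 2.91 (2.28 to 3.67), PLK1 0.190, 0.553, 1.09 and 1.82, and CCNA2 0.316, 0.603, 1.01 and 1.78. The intervals of the first and last bins did not overlap in these 3 genes. TK1 showed no such order (3.16, 3.82, 2.63 and 2.75), nor did KDR (1.71, 1.73, 1.09 and 2.10). PECAM1 had 14.4, 15.9, 14.7 and 19.6 and EGFL7 4.33, 4.22, 4.58 and 8.98, highest in the last bin.

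Loci without a gene name made up 41 of the 372 higher genes. Their share among all 11721 genes is not given here, so 41 is not read as an excess. Of the 41, 30 lay in 1 region, chromosome 7 from 20717123 to 21633939 (Sscrofa11.1). This region was noticed after the values had been seen. It holds 59 genes of the matrices, 40 of them with at least 20 counts. Of these 40, 33 have no name, and 30 of the 33 were higher, where 3.17% of all genes were. Of the 7 named genes 0 were higher, which is near that background. The region begins and ends at higher loci, so its limits were not chosen apart from them. The 30 loci are annotated as short, with a median length of 626.5 bases. LOC110261483 (20729940 to 20730466) had a level of 50.9 in dividing and 1.94 in non-dividing barcodes, with a UMI in 89.1% and 46.0% of them, and LOC100157763 (21582735 to 21583552) had 6.61 and 0.0578, the largest log2 ratio of the region at 5.41. Among the named genes, HIST1H2BD and HIST1H3E, both of histones, had log2 ratios of 0.51 and -0.07, and HFE, HMGN4, ABT1, ZNF322 and ZNF184 lay between -0.11 and 0.13. The table of genes used here gives no product for the unnamed loci. Near-identical copies would share reads, so the split among them is uncertain, and their sum is given as well.

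Summed over the 30 loci the level was 86.5 in dividing, 9.01 in 1-UMI and 3.72 in non-dividing barcodes. A UMI was found in 131 of the 137 dividing barcodes, with a median of 82 UMIs and a highest value of 421. It was also found in 1041 of the 1646 non-dividing barcodes, which were shallower and had a median of 1. Across the 4 bins of the G2/M share the sum was 84.1 (80.9 to 87.3), 117 (114 to 120), 87.8 (84.9 to 90.8) and 38.6 (36.2 to 41.2). It was thus highest in the second bin, where PCNA was highest in the first and CCNB1 in the last, and like PCNA it was lowest in the last bin.

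**Figure D5:**
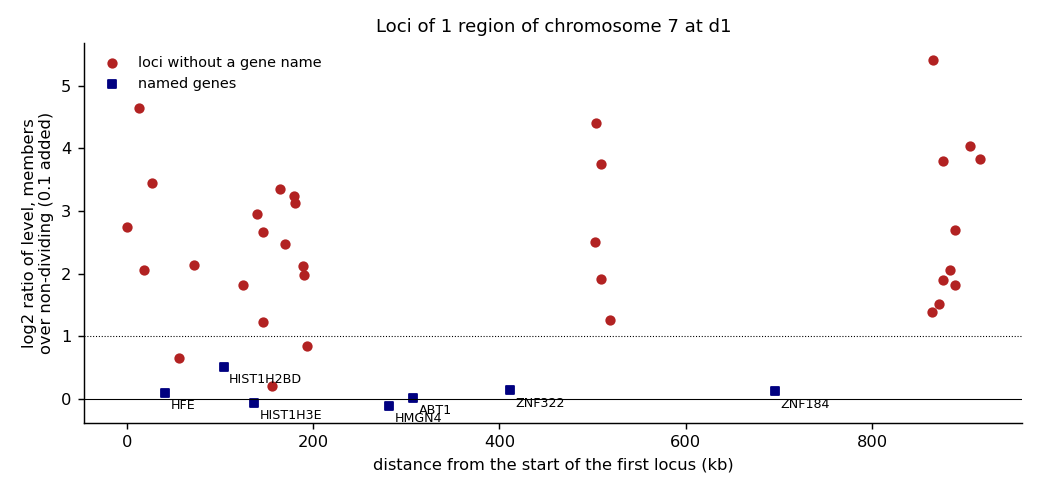
Log2 ratio of the level in dividing over non-dividing barcodes (y axis) of the 40 genes with at least 20 counts in the region of chromosome 7, by distance from the start of the first locus in kb (x axis). Red points are loci without a gene name and blue squares named genes. The red points reach 5.41 and 30 of 33 lie above the dotted 2-fold line, while the 7 blue squares lie near 0, up to 0.51.

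Endothelial identity genes were close to the non-dividing level. Of 26 endothelial genes outside the rule, 0 were at least 2-fold higher, 1 was lower and 25 were neither, with a median log2 ratio of -0.30 where the median of all genes was 0.01. Over all genes 3.17% were higher and 0.239% lower, so with 26 genes a count of 0 higher is near the background. EGFL7 was at 5.22 (4.84 to 5.62) against 5.31 (5.15 to 5.48), the TGF-beta coreceptor ENG at 3.87 (3.55 to 4.22) against 3.91 (3.78 to 4.06) and the sphingosine phosphate receptor S1PR1 at 2.87 (2.59 to 3.17) against 2.97 (2.85 to 3.09), and their intervals overlapped. KDR was at 1.61 (1.40 to 1.84) against 2.16 (2.06 to 2.27) and the transcription factor SOX17 at 2.09 (1.86 to 2.35) against 3.61 (3.48 to 3.75), below the non-dividing intervals but within 2-fold. The gene past the limit was ECSCR (chromosome 2, 141343818 to 141352618), a surface protein of endothelium, at 1.31 (1.13 to 1.52) against 2.85 (2.73 to 2.97), a log2 ratio of -1.06, and of -1.65 among unmixed barcodes. The transcription factor LYL1 had the highest ratio, 0.66, and 1.01 among unmixed barcodes. The rule genes PECAM1, PLVAP, VWF and CDH5 had log2 ratios of -0.13, -0.39, -0.34 and -0.37, which are values of genes that gated both classes.

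Of the genes of arteries, capillaries and veins, those past the 2-fold limit were lower in the dividing barcodes. Of 10 measured artery genes, 2 were at least 2-fold lower and 0 higher, with a median log2 ratio of -0.44, where 0.239% of all genes were lower and 3.17% higher. The gap junction gene GJA4 (chromosome 6, 91045430 to 91048161) was at 0.125 (0.0730 to 0.201) against 0.457 (0.411 to 0.507) and the chemokine CXCL12 (chromosome 14, 91516383 to 91543857) at 0.155 (0.0958 to 0.237) against 0.474 (0.427 to 0.525). HEY1, a Notch target of arteries, was at 0.118 (0.0674 to 0.192) against 0.335 (0.296 to 0.378), just under the limit. These are low levels, and GJA4 was seen in 8.76% of the dividing barcodes.

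Of 12 capillary genes, 2 were lower and 0 higher, with a median of -0.62, beside the same 0.239% and 3.17% of all genes. FABP4 (chromosome 4, 55096400 to 55101209), a fatty acid carrier, had 3 counts in all dividing barcodes, a level of 0.0221 (0.00456 to 0.0646) against 0.601 (0.548 to 0.658), but was seen in 4.07% of the non-dividing barcodes. GPIHBP1 (chromosome 4, 1253401 to 1256921), which holds lipoprotein lipase on capillaries, was at 0.980 (0.821 to 1.16) against 2.44 (2.33 to 2.55). At matched depth its log2 ratio was -0.83 and among unmixed barcodes -0.84, which is within 2-fold. The fatty acid carriers CD36 and FABP5 were the most abundant of the list, at 7.19 against 8.57 and 55.5 against 67.5.

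None of 11 genes of veins and venules passed the limit, with a median of -0.19. With 3.17% of all genes higher and 0.239% lower, a count of 0 among 11 is near the background. The atypical chemokine receptor ACKR1 was at 0.243 (0.167 to 0.342) against 0.586 (0.533 to 0.642), the lymphocyte homing receptor MADCAM1 at 3.98 (3.65 to 4.33) against 6.66 (6.48 to 6.84), and the adhesion receptor SELE, on the other side, at 1.08 (0.909 to 1.27) against 0.681 (0.624 to 0.741). ACKR1 had a log2 ratio of -1.41 at matched depth and -1.50 among unmixed barcodes, past the limit in both.

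Shares of barcodes with any of 6 genes per segment were compared after thinning to 2000 UMIs, which left 133 dividing and 1447 non-dividing barcodes. These 6 are fewer than the genes of each list above and are not named here, so the shares hold for that choice alone. For the artery genes they were 9.02% (4.75 to 15.2) and 15.8% (13.9 to 17.7), for the vein genes 44.4% (35.8 to 53.2) and 47.0% (44.4 to 49.6), for the capillary genes 75.9% (67.8 to 82.9) and 86.2% (84.3 to 87.9), and for the tip genes 15.8% (10.0 to 23.1) and 26.4% (24.1 to 28.8). The unthinned shares were 27.7% and 25.6%, 82.5% and 61.6%, 96.4% and 91.6%, and 47.4% and 43.0%. The intervals did not overlap for capillary and tip genes in the thinned barcodes and overlapped for artery and vein genes.

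Of 17 measured genes of tip cells and sprouting, 0 were at least 2-fold higher and 1 lower, with a median of -0.30, and over all genes 3.17% were higher and 0.239% lower. ESM1 (chromosome 16, 34184255 to 34193877), a secreted marker of tip cells, was at 0.0369 (0.0120 to 0.0860) against 0.267 (0.232 to 0.306), a log2 ratio of -1.42, but -0.82 at matched depth. The Notch ligand DLL4 was at 0.464 (0.357 to 0.594) against 0.772 (0.711 to 0.836) and the TIE receptor ligand ANGPT2 at 0.243 (0.167 to 0.342) against 0.433 (0.388 to 0.481), both within 2-fold, though DLL4 had a log2 ratio of -1.18 among unmixed barcodes. The adhesion gene MCAM was higher by less than 2-fold, at 1.04 (0.875 to 1.23) against 0.800 (0.738 to 0.865).

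The signalling lists held no gene past the limit in either direction. Over all genes 3.17% were higher and 0.239% lower, so a count of 0 in lists of 6 to 15 genes is near the background. The median log2 ratios were -0.27 for 9 VEGF ligands and receptors, -0.50 for 6 genes of the angiopoietin and TIE system, -0.38 for 13 Notch genes, -0.35 for 15 BMP and TGF-beta genes, -0.09 for 9 WNT genes, -0.18 for 6 genes of flow and quiescence and -0.15 for 15 genes of the IGF axis and growth. KLF2, the transcription factor of blood flow, had a log2 ratio of -0.11. ID2, a target of BMP signalling, was at 2.98 (2.69 to 3.28) against 4.99 (4.83 to 5.15), and IGF2 at 1.53 (1.33 to 1.75) against 2.33 (2.23 to 2.44). MYC had a log2 ratio of -0.31. Among unmixed barcodes DLL4 (-1.18) and HEY1 (-1.62) of the Notch list, ID2 (-1.28), ANGPTL4 (-1.58) and FZD6 (-1.15) were past the limit.

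Glycolysis, basement membrane and antigen presentation genes were near the non-dividing level. None of 17, 12 and 10 measured genes was 2-fold higher or lower, with medians of -0.14, -0.14 and -0.13. As 3.17% of all genes were higher and 0.239% lower, these counts of 0 are near the background. GAPDH was at 9.23 (8.73 to 9.76) against 8.95 (8.74 to 9.16), and pyruvate kinase (PKM) was the most raised of the glycolysis list, at 3.12 (2.83 to 3.43) against 2.23 (2.12 to 2.34). The collagen IV gene COL4A1 was at 19.7 against 20.8 and COL4A2 at 9.19 (8.69 to 9.72) against 9.65 (9.43 to 9.87). Of the class II genes, SLA-DRA was at 6.59 (6.17 to 7.04) against 7.12 (6.93 to 7.31).

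Of the 28 genes that were at least 2-fold lower, 7 stood in the lists above or in those of other cell types, the last being C1QC (0.0295 against 0.166), 1 of 6 myeloid genes. By size the first with a gene name of the other 21 were SST (log2 ratio -2.68), C1QA (-1.81), F2RL3 (-1.33), C8H4orf48 (-1.33), CCL5 (-1.32), CFD (-1.15), RAMP3 (-1.15), DPRX (-1.12), CD320 (-1.12) and TCP11L2 (-1.09). SST, the hormone somatostatin, and C1QA, a complement gene of macrophages, are genes of other cell types, were seen in 2.86% and 6.08% of the non-dividing barcodes, and had log2 ratios of -0.39 and -0.90 among the unmixed barcodes. At matched depth SST (-0.52) and RAMP3 (-0.88) were within 2-fold, as was DPRX (-0.83) among unmixed barcodes. CFD, the complement factor adipsin, was the most abundant, at 5.13 (4.76 to 5.53) against 11.5 (11.2 to 11.7), with 8.61 in the 1-UMI barcodes. CD320, the receptor for vitamin B12 on its carrier, was at 1.99 (1.76 to 2.24) against 4.44 (4.29 to 4.59), and the thrombin receptor F2RL3 at 0.199 (0.131 to 0.290) against 0.654 (0.598 to 0.713). Among unmixed barcodes CFD, CD320 and F2RL3 had log2 ratios of -1.75, -1.57 and -1.55.

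Of 7 measured genes of lymphatic endothelium, 6 were within 2-fold, beside 3.17% of all genes higher and 0.239% lower. LYVE1 was at 0.214 against 0.417, FLT4 at 0.140 against 0.190, and RELN had no count in the dividing barcodes. NTS, a peptide hormone, was at 6.91 against 0.0231, but 99.9% of its UMIs came from the barcode that also held the UMIs of PYY, and its log2 ratio was 0.23 among unmixed barcodes.

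Last, the cell cycle lists were set beside those of other dividing barcodes of d1. The pooled S level was 28.4 (27.5 to 29.3) in the 137 dividing blood endothelial barcodes, 18.9 (18.2 to 19.5) in 104 epithelial, 46.5 (41.9 to 51.4) in 12 immune and 37.8 (34.4 to 41.5) in 24 fibroblast barcodes. The pooled G2/M level was 111 (110 to 113), 73.6 (72.3 to 74.8), 119 (112 to 127) and 169 (162 to 176). The ratio of the lists was 3.93, 3.90, 2.57 and 4.47. Median depths were 7477, 13578.5, 6181.5 and 5152 UMIs, so the G2/M level was higher where the barcodes were shallower, and the part of depth in these levels was not tested.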

How the data were processed

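The authors deposited 1 matrix per library of raw UMI counts per gene and barcode, made with Cell Ranger 3.1.0, which runs STAR, on susScr11 (Sscrofa11.1) according to the submitters' processing notes and the study's methods. The labels and the methods name different versions of the 10x kit, and the methods name fewer forced cells than the matrices hold barcodes, so the barcodes that the study kept were not used here. Barcodes with at least 200 genes were kept. Their number was 15218, 14142, 10272, 16177 and 16892 from d0 to d21. No doublet caller was run, and barcodes with at least 3 UMIs over 15 markers of other types were called mixed instead. Pairs of libraries shared between 37 and 79 barcode sequences, and those of 2 dividing barcodes also occurred in another library.

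The planned count test needed 10 dividing barcodes in each of 3 libraries, and 1 library had them, so no test was made. Counts were summed per class, and genes with 20 counts were compared by size (2-fold, 0.1 added), a limit set after the files were seen. Named genes were those of the lists and the 10 largest with a gene name each way. The dividing barcodes and the lists were chosen with earlier results of these data known. Intervals are exact Clopper-Pearson or Poisson 95% ones from SciPy 1.17.1. The lists of S and G2/M genes are those of Seurat 5.3.0. Coordinates are those of RefSeq for Sscrofa11.1, where all 20648 symbols matched. Of 339 listed genes, 4 were not in the matrices. The comparison was tested on simulated sums without variation between barcodes. The changes put in were larger than 2-fold and lay in genes well above 20 counts. That test thus does not cover changes of low genes or of genes that rest on 1 barcode. Promoter sequences were not analysed here. The result for 1 listed gene is not reported here.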

Additional observations from a re-analysis of the deposited data

Results flagged for a closer look

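The rule left out dividing barcodes with the same 4 endothelial genes because they had a UMI of PROX1 or of PTPRC, and in 5 cases their number was above the 3 counts that a count of 0 allows. A single such barcode with PROX1 at d0 was not above it. At d1, 8 such barcodes without PTPRC had PROX1, with 65 UMIs of PECAM1, 41 of PLVAP, 47 of the lymphatic gene LYVE1 in 5 of them and 14 of KDR in 6. With PTPRC there were 11 at d1, 8 at d7, 42 at d14 and 13 at d21. The 11 of d1 had a median of 30 UMIs of the 4 endothelial genes, 49 UMIs of EGFL7 in all, and 1 UMI of CD3E. In the 42 of d14 the median was 4.5 UMIs, 0 had KDR, 17 had EGFL7, and 18 had CD3E. In the 8 of d7 and the 13 of d21 the medians were 4.5 and 6 UMIs, and KDR was seen in 1 barcode of each. The part of doublets in these barcodes was not tested.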

How the results depend on the processing

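The number of genes at least 2-fold higher stayed within 1.5 times of 372 under 8 of 10 alternatives and that of lower genes within 1.5 times of 28 under 6 of 10. With 0.01 added in place of 0.1 the numbers were 653 and 422, and with at least 100 counts per gene 244 were higher. Lower genes numbered 169 without the mixed barcodes, of which 19 were among the 28, 45 for at least 4 division UMIs and 53 with every barcode weighted equally. The choices of 0.01, of 100 counts, of equal weights and of leaving out the barcode with hormone genes were made after seeing the data. For 98 named genes under the 10 alternatives, 801 ratios stayed within the range that counting error gave around the main ratio. Another 176 moved outside it with the same sign, and 3 changed sign. PYY changed sign without the mixed barcodes (-0.17) and without the barcode with hormone genes (-0.44), and NTS without the latter (-0.20).

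The dividing share of d1 was 4.94% and 2.37% after thinning to 2000 and 1000 UMIs, 5.78% without mixed barcodes, and 11.4% and 5.49% at a division limit of 1 and 4 UMIs. At d0 it was 0 after both thinnings and at a limit of 4. At d14 it was 0 after thinning to 1000, without mixed barcodes, at a limit of 4 and with at least 5 endothelial UMIs, and 10.3% at a limit of 1. At d7 no blood endothelial barcode was left at 2000 UMIs. The cause of these differences was not tested.

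Since 1 library had enough dividing barcodes, the planned DESeq2 and edgeR fits, those with and without the library as a term, the one over libraries with at least 20 dividing barcodes, those leaving out a library and the comparison of dividing barcodes by age could not be run. No paired analysis was possible because there is 1 library per age. The precision is limited by the 137 barcodes of 1 library, and variation between piglets is not measured.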

Other observations

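A dividing barcode of d1 held 99.9% of the 938 UMIs of NTS, 97.6% of those of PYY and 94.7% of those of GCG, and the highest share of 6 of the 12 higher genes that rested on 1 barcode, which also include GAST, APOC2 and MELTF. It had 21945 UMIs, 32 of the 4 endothelial genes and 10 of MKI67 and TOP2A. A second barcode, of 25601 UMIs, 89 of them endothelial, held most of the UMIs of BPI, SAA3, REG4 and FCN2. Both were mixed by the marker rule.

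Levels differed between dividing barcodes with fewer than 3 UMIs of the markers of other cell types and those with at least 3. In the 59 unmixed against the 78 mixed ones, PLVAP was at 31.5 (29.8 to 33.2) and 21.6 (20.6 to 22.5), PECAM1 at 21.3 (19.9 to 22.7) and 13.5 (12.7 to 14.2), HMGB2 at 23.2 (21.7 to 24.7) and 13.8 (13.1 to 14.6) and the loci of chromosome 7 at 115 (112 to 119) and 73.9 (72.2 to 75.7). Median depth was 6389 UMIs in the unmixed and 9045.5 in the mixed barcodes.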
